A study of Mus musculus with 2 samples.

Results

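The genes described here are 10 genes of the Hippo-YAP pathway and its outputs, chosen by name with earlier results of these data known. They comprise 7 pathway members (Yap1, Wwtr1, Tead1, Lats2, Ajuba, Amotl1 and Amotl2) and 3 target genes (Axl, Ccn1 and Ccn2), of 21631 protein-coding genes on chromosomes 1 to 19 and X. Hnf4a peak summits were collected inside each gene or within 50 kb of its ends, and a pair of summits, 1 from each replicate, within 100 bp was counted as a shared site. The windows held 42 of the 21283 deposited summits of replicate 1 and 51 of the 24097 of replicate 2 (46.5 ± 6.36, SD, n = 2), and 26 shared sites.

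Both libraries come from iHepCs, hepatocyte-like cells that were reprogrammed from embryonic fibroblasts of wild-type C57BL/6J mice with retroviruses carrying Foxa2 and Hnf4a, and that the labels list as fibroblasts from embryo. The medium held serum, insulin, β-mercaptoethanol, dexamethasone (100 nM), nicotinamide (10 mM), and hepatocyte and epidermal growth factors (20 ng/ml each). Hnf4a was located by ChIL-seq: an antibody-bound probe marks nearby DNA by transposition, and the marked DNA is copied into RNA inside the fixed cells, here 10000 a well. The 2 replicates form the only group, and their peak names carry the same lot number, without saying what the lot is of. Differences between these libraries may be technical.

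Hnf4a was itself introduced, and introduced and endogenous protein cannot be told apart in these lists. No control sample was analysed here. Expression was not measured, so the cells could not be checked against liver or fibroblast markers, and a site says nothing of whether the gene beside it was on or off. The files give the position of each summit in mm10 and a score, the −log10 of the authors' q-value, used here to describe and rank summits within a list. The median score of a whole list was 7.32 for replicate 1 and 6.67 for replicate 2. Depth is unknown, since no read counts are given in the lists.

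The Hippo pathway is a kinase relay that restrains growth. Its Lats kinases phosphorylate the co-activators Yap1 and Wwtr1 (also called Taz), which then stay in the cytoplasm, and when they are not phosphorylated they enter the nucleus and act through the DNA-binding Tead factors. In the liver the pathway limits organ size and helps to set whether cells take hepatocyte or bile duct features. Several of its own genes, including Lats2, Ajuba and Amotl2, are also known outputs of Yap1 and Tead, so the line between pathway members and targets is drawn by role and not by regulation.

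Promoter sequence was examined first, since summits fell in or beside the promoters of 3 members. RefSeq promoter windows of GRCm38.p6, the assembly of mm10, run from 250 bases before to 50 bases after a listed start site. They were at hand for 8 of the 10 members, all but Tead1 and Ccn2. The 3 windows with a summit inside or within 500 bp are printed 5′ to 3′ on the strand of the gene. For Wwtr1, which has 2 listed windows, the one shown is the nearer to the summits. Capitals mark every match, on either strand, to GGAATG (the core bound by Tead factors, CATTCC on the other strand), to AGGTCA (an element of nuclear receptor sites, TGACCT on the other strand) or to TGTTTAC (a Foxa core, GTAAACA on the other strand).
Amotl2, chr9:102717554-102717853, plus strand: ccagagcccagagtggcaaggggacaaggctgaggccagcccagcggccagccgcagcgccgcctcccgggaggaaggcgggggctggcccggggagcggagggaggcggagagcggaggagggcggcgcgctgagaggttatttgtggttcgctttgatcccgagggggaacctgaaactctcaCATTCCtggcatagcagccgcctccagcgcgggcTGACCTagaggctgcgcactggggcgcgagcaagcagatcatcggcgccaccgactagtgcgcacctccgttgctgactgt
Ajuba, chr14:54577612-54577911, minus strand: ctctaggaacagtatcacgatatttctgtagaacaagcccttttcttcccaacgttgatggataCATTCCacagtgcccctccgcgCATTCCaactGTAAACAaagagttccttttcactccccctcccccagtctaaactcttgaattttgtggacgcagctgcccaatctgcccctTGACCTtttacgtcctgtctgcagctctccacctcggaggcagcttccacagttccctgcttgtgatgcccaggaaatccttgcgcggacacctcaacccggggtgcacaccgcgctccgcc
Wwtr1, chr3:57575861-57576160, minus strand: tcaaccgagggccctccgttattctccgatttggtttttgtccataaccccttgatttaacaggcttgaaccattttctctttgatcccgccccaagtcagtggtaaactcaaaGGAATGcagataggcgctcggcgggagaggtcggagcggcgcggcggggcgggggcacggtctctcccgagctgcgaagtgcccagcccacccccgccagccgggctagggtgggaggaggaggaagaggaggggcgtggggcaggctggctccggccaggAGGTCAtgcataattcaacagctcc

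In the Amotl2 window the replicate 1 summit fell on base 27 and the replicate 2 summit on base 17, which is 224 and 234 bases before the listed start site. That start lies inside the gene, whose 5′ end is at 102717091. The shared site is thus also inside the gene, 484 bp from that end. The TEAD-type match lies at bases 186 to 191 and the nuclear receptor match at bases 220 to 225, so both matches stand between the summits and the start. At Ajuba the summits lay upstream of the printed window, 348 bp beyond it in replicate 1 and 314 bp in replicate 2. Its window holds 2 TEAD-type matches (bases 65 to 70 and 87 to 92), a Foxa match (97 to 103) and a nuclear receptor match (179 to 184). At Wwtr1 the replicate 2 summit lay 6 bp beyond the window and the replicate 1 summit 220 bp beyond it.

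Letters of the TEAD core were found in most of the members with a window. This is descriptive only, since the members were chosen with results of these data known. GGAATG was found, on either strand, in the promoter windows of 7 of 8 members with a window (Yap1, Wwtr1, Lats2, Ajuba, Amotl2, Axl and Ccn1, but not Amotl1), beside 15.4% of the 17274 protein-coding genes in the table and 13.5% of their 21045 windows. Of the other 32 pathway and target genes with a window, 9 held it (28.1%). Of the 7 members that did, only Wwtr1, Ajuba and Amotl2 had a summit in or within 500 bp of their window. AGGTCA was found in 3 members (Wwtr1, Ajuba and Amotl2), beside 16.6% of genes and 14.6% of windows, and in 4 of the other 32 pathway and target genes (12.5%). TGTTTAC was found in 2 (Ajuba and Axl), beside 3.49% of genes and 3.03% of windows, and in 0 of the other 32. In Axl its first bases are the last of the GGAATG match. Searched in the same way, 4 strings were in none of the 8 members. The HNF4 string CAAAGTCCA was in 0.527% of genes and 0.456% of windows, and the shorter CAAAGTC, which it contains, in 4.85% and 4.17%. The other Foxa core TGTTTGC was in 5.34% of genes and 4.62% of windows, and the AP-1 string TGANTCA in 8.19% and 7.04%. These are matches of letters in a fixed window, and an absent string says only that its letters are not in that window. The Amotl1 window is at a listed start inside the gene, so the 5′ end of Amotl1 was not searched. Sequence at the other sites was not used here.

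All 10 members had at least 1 shared site in their window, as did 48.4% of all protein-coding genes. Of 44 further pathway and target genes, 30 had one (68.2%). The members were chosen with results of these data known, so their shares are descriptive only. A replicate 1 summit was present at all 10 members, beside 71.0% of all genes, and a replicate 2 summit at all 10, beside 74.3%. Shared sites inside the gene itself were found in 6 members (Yap1, Tead1, Ajuba, Amotl1, Amotl2 and Axl), beside 13.8% of all genes. That share was not matched for gene length, and the bodies of these 6 ran from 10.2 kb (Ajuba) to 227 kb (Tead1). The members' windows ran from 103.0 kb (Ccn1) to 327 kb (Tead1). With all genes sorted by window length into 5 classes of nearly equal number, a shared site was present in 31.1%, 48.5%, 51.2%, 52.1% and 59.3% of the classes from the shortest windows to the longest. The pooled density in those classes was 0.469, 0.732, 0.704, 0.615 and 0.442 shared sites per 100 kb, so it did not stay constant with length. The map of summits by gene shows how these sites were placed.

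**Figure D1:**
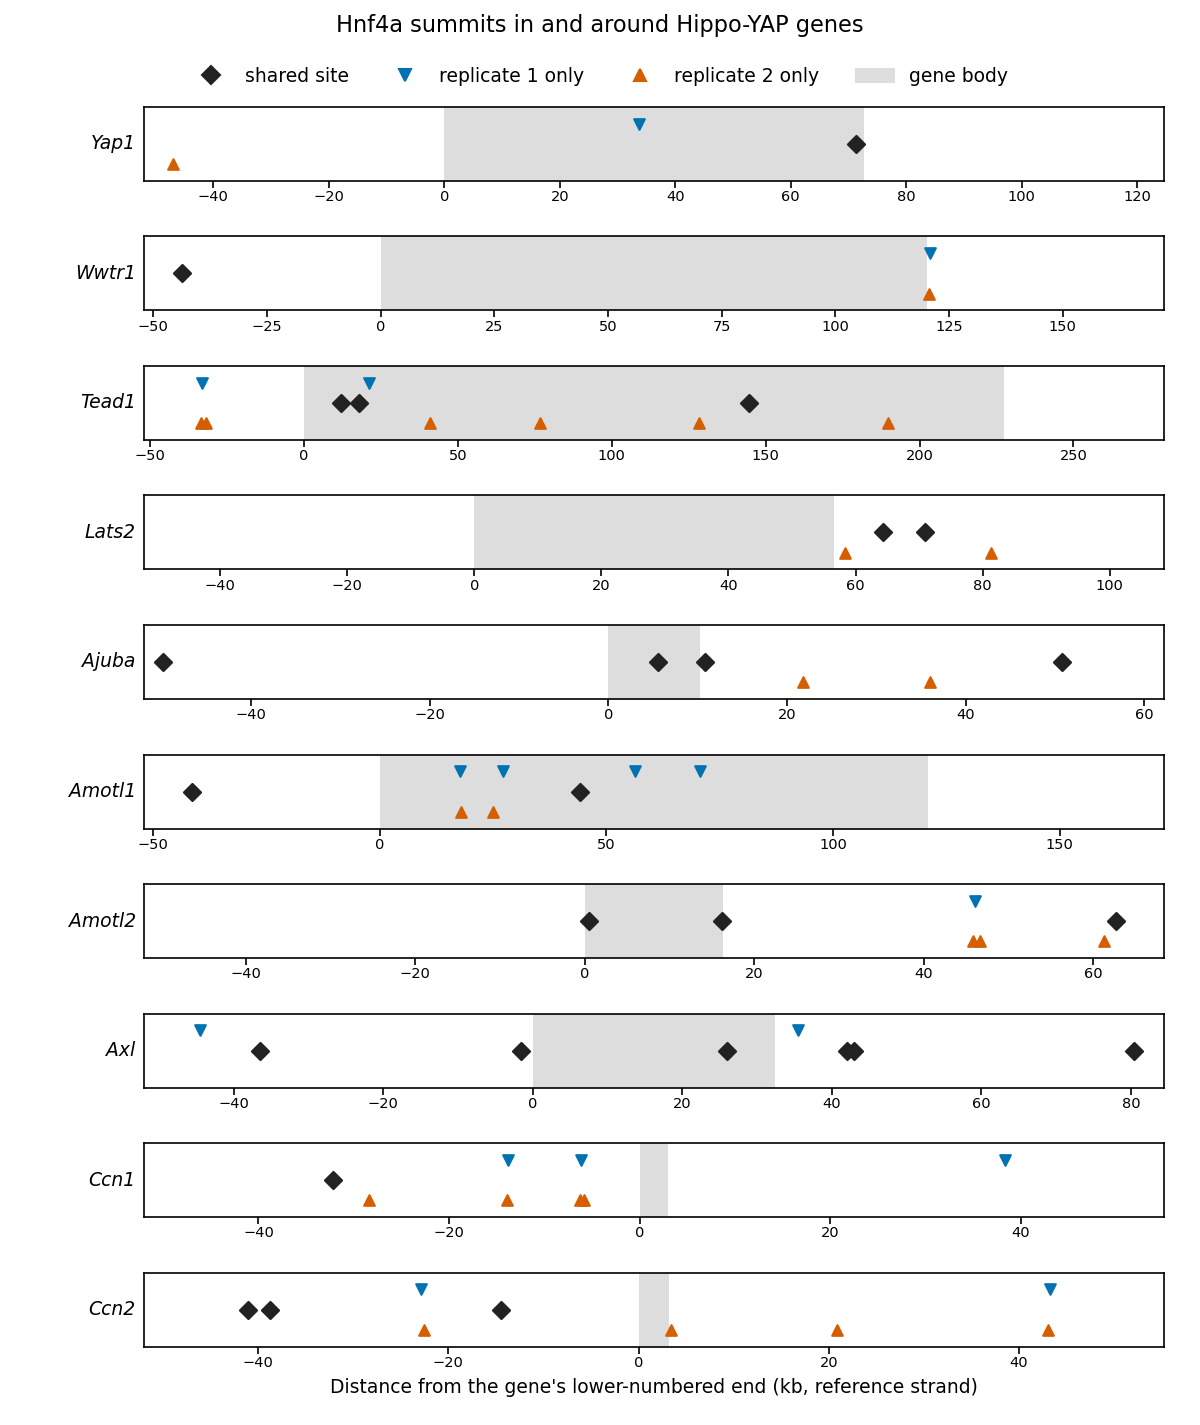
Positions of Hnf4a summits at the 10 members, 1 panel a gene, as distance in kb from the lower-numbered end of the gene on the reference strand; the scale differs between panels. Diamonds are shared sites, triangles are summits of 1 replicate without a counterpart within 100 bp, and grey marks the gene body. Axl carries 6 shared sites and Ajuba 4, while Yap1, Wwtr1 and Ccn1 carry 1 each.

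Yap1 and Wwtr1 encode the co-activators on which the kinase relay acts. Yap1 (chr9:7931999-8004638, minus strand) had 2 summits in each replicate and 1 shared site. This site lay inside the gene at 8003361 in replicate 1 and 8003374 in replicate 2, 1235 and 1222 bp downstream of the listed start, with scores of 8.12 and 10.8. The gene thus had a moderate site just past its start in both libraries. The remaining summits were a replicate 1 summit deep inside the gene (5.70) and a replicate 2 summit nearer to Birc3, a gene for an inhibitor of apoptosis (4.51).

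Wwtr1 (chr3:57455644-57575910, minus strand) also had 2 summits in each replicate and 1 shared site. The shared site lay 43713 bp downstream of the gene at 57411945 in replicate 1 and 57411918 in replicate 2, and scored 7.44 and 12.3. It was nearer to Tm4sf4, which encodes a tetraspan membrane protein, at 13479 bp. Upstream of the Wwtr1 start, the replicate 1 summit at 57576380 (4.39) and the replicate 2 summit at 57576166 (6.02) stood 214 bp apart. Both libraries therefore placed a low-scored summit at the Wwtr1 promoter, 470 and 256 bp before the listed start, without meeting the 100 bp rule.

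Tead1 encodes a DNA-binding partner of both co-activators and is the longest member (chr7:112679356-112906784, 227 kb). It had 5 summits in replicate 1, 9 in replicate 2 and 3 shared sites, all inside the gene. The best of these lay at 112691461 in replicate 1 and 112691535 in replicate 2, 12142 bp inside the lower-numbered end, and scored 10.3 and 9.51. The other two, 17723 bp and 144.5 kb from that end, scored 6.18 and 5.54 in replicate 1 and 8.07 and 7.53 in replicate 2. The highest score in the Tead1 window belonged to a summit without a counterpart, at 112720246 in replicate 2 (17.1), and the nearest replicate 1 summit was 19710 bp away. It was the best-scored unshared summit of replicate 2 at any member. A further pair 159 bp apart, 33167 and 33326 bp beyond the lower-numbered end, scored 10.7 in replicate 1 and 11.2 in replicate 2.

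Lats2 encodes a kinase that phosphorylates Yap1 and Wwtr1 (chr14:57689662-57746212, minus strand). It had 2 summits in replicate 1 and 4 in replicate 2, and both replicate 1 summits were shared. The nearer shared site, at 57753917 in replicate 1 and 57753939 in replicate 2, lay 7716 bp upstream of the gene and scored 12.0 and 13.0. The farther, 14455 bp upstream, scored 6.13 and 7.77. Both stand on the promoter side of Lats2, and Gm52140, a predicted gene, has the nearest protein-coding gene body to each. The nearest listed start to each was that of Lats2. Replicate 2 alone had a summit closer to the gene, 1885 bp upstream of the listed start (5.96). No summit of either replicate fell inside Lats2.

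Ajuba encodes a LIM-domain scaffold of cell junctions that binds and holds back Lats kinases (chr14:54567469-54577661, minus strand). It had 4 summits in replicate 1, all shared, and 6 in replicate 2. The site inside the gene, at 54573014 in replicate 1 and 54573030 in replicate 2, scored 18.7 and 32.0 and ranked 1477 and 255 in its list. It lay 4647 and 4631 bp downstream of the start and had the highest replicate 2 score of the 26 shared sites. The promoter site described with the sequence, at 54578259 and 54578225, scored 11.7 in replicate 1 and 5.33 in replicate 2. The remaining sites lay at the starts of neighbours, 136 bp from Prmt5, an arginine methyltransferase gene (23.1 and 14.6), and 248 bp from Psmb5, a proteasome subunit gene (6.29 and 10.7). Of the 4 shared sites, 2 were thus closer to Ajuba than to another gene.

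Amotl1 and Amotl2 encode angiomotin-like proteins, which hold Yap1 at cell junctions. Amotl1 (chr9:14541966-14662974, minus strand) had 6 summits in replicate 1, 4 in replicate 2 and 2 shared sites. The better lay 50 bp from the start of Cwc15, a splicing factor gene, 41397 bp from Amotl1, with nearly equal scores of 17.1 in each replicate. The other, inside Amotl1 at 14586006 in replicate 1 and 14586102 in replicate 2, scored 9.82 and 7.14. The listed Amotl1 start, 14615000, lies inside the gene, whose 5′ end is at 14662974. Replicate 1 also had a summit 2397 bp downstream of that start, at 14612603 (14.4), and 50.4 kb from the 5′ end. The nearest replicate 2 summit was 26501 bp away. The best-scored replicate 1 summit inside Amotl1 thus had no counterpart.

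Amotl2 (chr9:102717091-102733418, plus strand) had 4 summits in replicate 1, 6 in replicate 2 and 3 shared sites, and no other protein-coding gene in its window. The promoter site, inside the gene body at 102717580 in replicate 1 and 102717570 in replicate 2, scored 16.1 and 21.8. These were among the best 10.2% and 3.53% of the lists. A site at the far end of the gene, 151 bp inside its end, scored 5.14 in replicate 1 and 13.2 in replicate 2. The farthest, 46397 bp downstream, scored 5.09 and 9.77. Of the 8 members with a promoter window, only Amotl2 had a shared site within it. A further pair, 156 bp apart and 29666 and 29510 bp downstream, scored 10.03 in replicate 1 and 9.40 in replicate 2.

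Axl, the target with most sites, encodes a receptor tyrosine kinase for the ligand Gas6 (chr7:25756500-25788924, minus strand). It had 8 summits in replicate 1 and 6 in replicate 2, and all 6 of replicate 2 were shared. The site inside the gene, at 25782459 in replicate 1 and 25782446 in replicate 2, 6274 and 6287 bp downstream of the listed start, scored 26.4 and 28.1. It ranked 529 and 398, the best worse rank of the 26 shared sites. Upstream of Axl, a pair of sites 9632 and 10602 bp from the gene scored 14.0 and 13.6 in replicate 1, and 9.58 and 11.2 in replicate 2. Both lay nearer to the body of Cyp2s1, a cytochrome P450 gene, at 3913 and 2943 bp. Their nearest listed start was that of Axl, at 9823 and 10793 bp. The other shared sites lay 20355 bp from Cyp2s1 (6.58 and 9.30), inside Hnrnpul1, a gene for an RNA-binding nuclear protein (9.39 and 7.68), and 1035 bp from Ccdc97 (7.15 and 4.42). Of the 6 sites in the Axl window, only the site inside the gene had Axl as its nearest gene body.

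Ccn1 and Ccn2, formerly Cyr61 and Ctgf, encode secreted matricellular proteins and are widely used readouts of Yap1 activity. Ccn1 (chr3:145646971-145649985, minus strand) had 4 summits in replicate 1, 5 in replicate 2 and 1 shared site, 32138 bp downstream, which scored 11.1 and 9.30. It lay 9588 bp from Znhit6, the nearest gene. Closer to Ccn1, the libraries had near neighbours that missed the 100 bp rule. A pair 154 bp apart, 13777 and 13931 bp downstream, scored 13.4 in replicate 1 and 11.1 in replicate 2. A pair 102 bp apart, 6192 and 6294 bp downstream, scored 6.11 and 6.16. With 200 bp allowed, Ccn1 thus had 2 further sites, both nearer to it than the shared site. No summit fell inside Ccn1 or within 5 kb of it.

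Ccn2 (chr10:24595442-24598683) had 5 summits in replicate 1, 7 in replicate 2 and 3 shared sites, all beyond its lower-numbered end and all with Ccn2 as the nearest protein-coding gene. The nearest, at 24581032 in replicate 1 and 24580992 in replicate 2, lay 14430 bp from the gene and scored 10.3 and 19.7. The site at 38797 bp scored 5.63 and 11.0, and that at 41095 bp scored 9.93 and 3.90. Scores thus differed between the replicates at each of the 3 sites, without one replicate being the higher throughout. A further pair of summits, 217 bp apart, lay inside Enpp1, the gene for an ectonucleotide pyrophosphatase. It scored 17.9 in replicate 1, the best unshared summit of that replicate at the members and the best of its summits in this window, and 13.4 in replicate 2. Replicate 2 alone had a summit 137 bp beyond the higher-numbered end of Ccn2 (5.89). Neither Ccn gene held a shared site inside its short body.

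Pathway members were then set beside targets. The windows of the 7 pathway members held 25 summits in replicate 1, 33 in replicate 2 (29 ± 5.66, SD, n = 2) and 16 shared sites in 1324 kb, or 1.21 shared sites per 100 kb. Those of the 3 targets held 17 summits in replicate 1, 18 in replicate 2 (17.5 ± 0.707) and 10 shared sites in 339 kb, or 2.95 per 100 kb. The ranges overlapped: pathway members ran from 0.454 (Wwtr1) to 3.63 (Ajuba) and targets from 0.971 (Ccn1) to 4.53 (Axl) shared sites per 100 kb, with medians of 0.916 and 2.91. Axl weighed heavily, and without it the targets had 1.94 per 100 kb, while the pathway members without Ajuba had 0.988. No test was made, since genes are not replicates and the members were chosen with results of these data known.

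The classes also differed in gene size. Gene bodies made up 47.1% of the pathway windows and 11.4% of the target windows. Inside genes, pathway members had 8 shared sites (1.28 per 100 kb) and targets 1 (2.59 per 100 kb), and in the flanks pathway members had 8 (1.14 per 100 kb) and targets 9 (3 per 100 kb). Ajuba and Amotl2, pathway genes of 10.2 and 16.3 kb, had 3.63 and 2.58 shared sites per 100 kb, close to the 2.91 of Ccn2, and the low densities were those of Yap1, Wwtr1, Tead1 and Amotl1, all longer than 70 kb, and of Ccn1. The part of gene length in the difference was not tested.

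**Figure D2:**
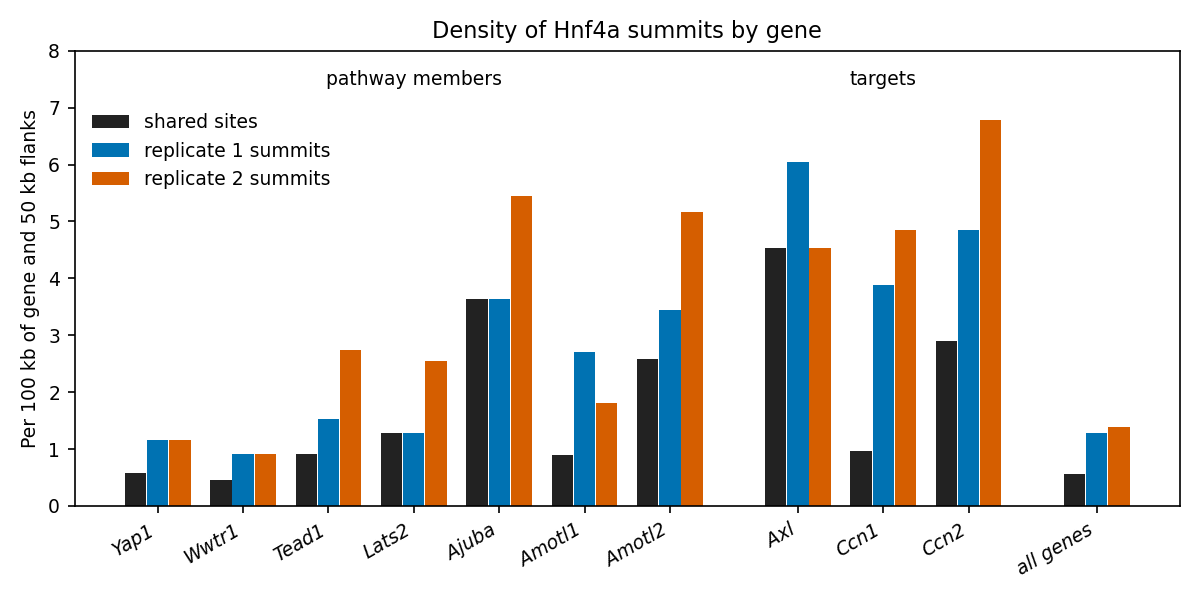
Hnf4a summits per 100 kb of each window (the gene and 50 kb beyond each end), for 7 pathway members, 3 targets and, at the right, the 21631 protein-coding genes pooled. Black bars are shared sites, blue bars replicate 1 summits and orange bars replicate 2 summits; Axl has 4.53 shared sites per 100 kb and all genes 0.561.

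Scores differed less between the classes than densities did. Shared sites of pathway members had a median score of 8.97 in replicate 1 and 10.7 in replicate 2, and those of targets had medians of 10.1 and 9.44. Scores of pathway members ran from 5.09 to 23.1 in replicate 1 and from 5.33 to 32.0 in replicate 2, and those of targets from 5.63 to 26.4 and from 3.90 to 28.1, so the classes overlapped over most of their range. Over all 9193 shared sites of the genome the medians were 9.93 and 9.61, close to the 9.87 and 10.2 of the 26 sites at the members. Of the 26, 3 were within the best 10% of both lists (the sites inside Axl and Ajuba and the Cwc15 site), or 2 of 16 at pathway members and 1 of 10 at targets, beside 13.4% of all shared sites. In score, the members' sites were thus near the whole set of shared sites.

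**Figure D3:**
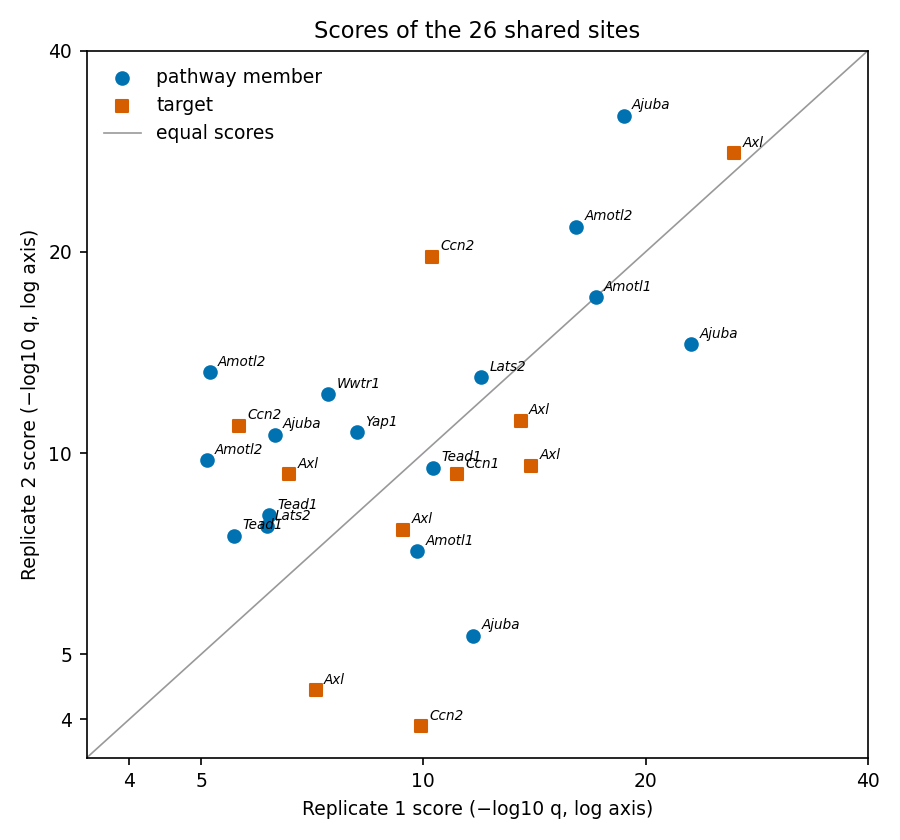
Replicate 1 score against replicate 2 score (−log10 q, log axes) of the 26 shared sites, each labelled with the member in whose window it lies; circles are pathway members, squares are targets, and the line marks equal scores. The sites inside Axl (26.4 and 28.1) and Ajuba (18.7 and 32.0) stand at the upper right.

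In number of sites, some members stood high among all genes. This standing is descriptive only, since the members were chosen with results of these data known. The members together had 1.56 shared sites per 100 kb, and all genes together had 0.561, counting a site once for every window that holds it. The density was higher in members both inside genes (1.36 and 0.417 per 100 kb) and in the flanks (1.70 and 0.631). The median member had 2.5 shared sites and 1.12 per 100 kb, while the median gene had 0 and 0. At least as many shared sites as Axl, with 6, were found at 0.462% of all genes and at 0.301% of genes in its class of window length. For Ajuba, with 4, these shares were 3.10% and 1.83%. Tead1, Amotl2 and Ccn2, each with 3, were matched or passed by 8.54% of all genes, and in their own length classes by 15.5%, 8.04% and 4.04%. Lats2 and Amotl1, with 2, were matched or passed by 21.2% of all genes, and in their own length classes by 21.2% and 32.0%. A single site, as at Yap1, Wwtr1 and Ccn1, was matched or passed by 48.4% of all genes, and in their own length classes by 59.3%, 59.3% and 31.1%. The counts of those 3 genes were therefore common ones.

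Many of the sites had another gene nearer. The member was the nearest protein-coding gene for 14 of the 26 shared sites, 10 of 16 at pathway members and 4 of 10 at targets. With those sites alone, 7 of the 10 members kept a shared site, and Wwtr1, Lats2 and Ccn1 did not. Nearness here is to the gene body. By listed start the nearest gene changed for some sites, towards the member at Lats2 and Axl and away from it at Amotl2. Within 1 kb of a listed start site lay 6 of the 26 sites (23.1%), 5 of 16 at pathway members and 1 of 10 at targets, beside 17.8% of the 9179 shared sites on chromosomes 1 to 19 and X. Only the Amotl2 and Ajuba sites among these 6 were at the start of a member, and the others were at Prmt5, Psmb5, Cwc15 and Hnrnpul1.

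Agreement between the replicates at the members was described in the same way. The 26 shared sites made up 61.9% of replicate 1 summits in the windows (95% exact binomial interval 45.6 to 76.4) and 51.0% of replicate 2 summits (36.6 to 65.2), beside 43.2% and 38.2% over the whole lists. The intervals cover counting error only and treat summits of the same window as independent. The members were chosen with results of these data known, so no excess over the whole lists is read from these shares. For pathway members the shares were 64% in replicate 1 and 48.5% in replicate 2, and for targets 58.8% and 55.6%. A difference between the classes in these shares was not tested. The median distance between the summits of a shared site was 39.5 bp, 31 bp at pathway members and 51 bp at targets, beside 32 bp over all shared sites. No pair was on the same base. The closest to the limit were a pair 96 bp apart in Amotl1 (9.82 and 7.14), which counted, and the pair 102 bp apart near Ccn1 (6.11 and 6.16), which did not. At the edge of the window, the Prmt5 site stood 49863 bp from Ajuba and counted, and a site 51816 bp from Lats2 (6.51 and 5.47) did not.

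The 16 unshared summits of replicate 1 had a median score of 8.49 and the 25 of replicate 2 a median of 6.16. Of these, 8 in replicate 1 and 9 in replicate 2 had a summit of the other library within 500 bp, among them those at the Wwtr1 promoter, inside Enpp1 and downstream of Ccn1. The remaining 8 and 16 had none.

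Other genes of the pathway were then examined, on lists written with earlier results of these data known. Of 25 further core and upstream genes, 15 had a shared site in their window (60%), and of 19 further targets 15 did (78.9%), beside 48.4% of all genes. Their median windows were 174 and 130 kb, and the median gene's was 117 kb. In the length classes that hold those 2 medians, 59.3% and 52.1% of genes had a shared site. The 60% of the core and upstream genes was thus near the share in its class. They had 0.753 and 1.01 shared sites per 100 kb, between the 1.56 of the 10 members and the 0.561 of all genes.

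The 8 best-ranked sites of these lists lay in the windows of Nt5e, Limd1, Ptpn14, Crim1, Areg, Dock5, Tead4 and Vgll4, and scores are given with replicate 1 before replicate 2. Nt5e, which encodes the AMP-hydrolysing surface enzyme CD73, had its site inside the gene (43.0 and 36.3). Ptpn14, a phosphatase that restrains Yap1, had 6 shared sites, and the best, 8297 bp outside the gene, scored 39.0 and 31.3. Crim1, a transmembrane gene with BMP-binding repeats, had 7, and the best lay in its neighbour Fez2 (32.5 and 31.8). Each of these sites outscored every site at the 10 members in at least replicate 1.

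Limd1, a LIM-domain relative of Ajuba, had a site that lay inside Lars2 (34.5 and 46.1). That of Areg, an epidermal growth factor receptor ligand, lay inside Ereg, the gene of a related ligand, 49258 bp away (34.6 and 28.8). For Dock5, a guanine exchange factor gene, the best site lay 54 bp from Cdca2 (19.7 and 21.8). These 3 genes thus had their best site at a neighbour. Tead4, a relative of Tead1, had a site 1085 bp outside the gene (17.7 and 18.8), and Vgll4, a Tead-binding repressor that competes with Yap1, had 5 shared sites, the best inside the gene (17.6 and 18.6).

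The genes of these lists without a shared site, named here for completeness after their values were seen, were 10 of the 25 core and upstream genes and 4 of the 19 further targets. The core and upstream genes were Stk4, Sav1, Lats1, Mob1a, Mob1b, Nf2, Taok1, Wtip, Fat4 and Tead2, and the targets were Ankrd1, Tgfb2, Fjx1 and Asap1. All of these but Fjx1 had a summit of at least 1 replicate in their window.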

How the data were processed

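Both libraries map Hnf4a in iHepCs, and the members and gene lists were chosen with earlier results of these data known. Tools named in the submitters' processing notes are MACS2 2.2.9.1, HISAT2 2.0.5 and fastp 0.23.4, with mm10 as the build. The deposited lists give 1-bp summits called per library, with the authors' −log10 q-value as score, from 2.04 in replicate 1 and 2.01 in replicate 2 upward. The use of a control library, duplicate removal and filtering of problem regions are not given in the sources used here.

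Genes came from the RefSeq table of GRCm38.p6, and start sites and strands from the RefSeq promoter table. The exon structure of the members was not used here. Summits were paired across replicates, nearest first and each used once, within 100 bp, and a site's position is the midpoint. Where windows overlap, a site counts for each gene. Shares carry exact binomial intervals. No test was made, since there is 1 group of 2 replicates. Beside the 10 members, the text names the best 8 other pathway genes by the worse rank of their best shared site, the nearest gene of each shared site and the best-scored unshared summit per replicate. Pairing and window counts were tested on simulated data. Python 3.11.15, numpy 2.4.6, pandas 2.3.3, scipy 1.17.1 and matplotlib 3.10.9 were used.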

Additional observations from a re-analysis of the deposited data

How the results depend on the processing

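Shared sites were 0 with identical bases required (0 members, 0 per 100 kb in both classes and 0% of both lists), 15 within 50 bp (0.755 per 100 kb at pathway members and 1.48 at targets, 35.7% of replicate 1 and 29.4% of replicate 2), 30 within 200 bp and 34 within 500 bp, where they made up 81.0% of replicate 1 and 66.7% of replicate 2. Inside the genes alone there were 15 summits in each replicate and 9 shared sites at 6 members. Within 10 kb there were 22 summits in replicate 1, 24 in replicate 2 and 13 shared sites at 7 members, and within 100 kb 32 sites at all 10. The best 10000 summits of each list gave 25 and 28 summits and 13 shared sites at 9 members (0.529 per 100 kb at pathway members and 1.77 at targets). Where the member had to be the nearest gene, replicate 2 had 32 summits, and there were 14 shared sites (0.755 and 1.18 per 100 kb). In replicates taken alone, leaving out the other, pathway members had 1.89 to 2.49 and targets 5.02 to 5.31 summits per 100 kb, and all 10 members had a summit. In alternatives chosen after seeing the data, pathway members without Ajuba had 0.988 and targets without Axl 1.94 shared sites per 100 kb. Targets had the higher density in 11 of 12 settings, all but identical bases, where both were 0. These settings draw on the same summit lists, so they are not separate evidence. Inside the genes and within 10 kb, all shared sites of targets were in the Axl window, and Ccn1 and Ccn2 had none. No paired analysis was possible because there is 1 group and no test. Depth is unknown, so a missing summit is not shown to be a missing site.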
